A study of Saccharomyces cerevisiae with 10 samples.

Results

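The small subunit of the cytosolic ribosome of budding yeast is built from 32 proteins, which 56 genes named RPS with a number encode. Members were taken by that symbol, matched through locus tags to the RefSeq gene table of assembly R64, and 54 of them had values among the 5983 genes on the arrays. RPS10B and RPS16A were not analysed here. Of the 32 proteins, 8 come from 1 gene each, RPS2 and RPS13 among them, and 24 from a pair of genes marked A and B. The measured genes lay on 14 of the 16 nuclear chromosomes, and in the gene order only RPS14B and RPS22A, on chromosome X, were neighbours.

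The genes were followed in 2 strains of Saccharomyces cerevisiae under heat shock, at 0, 5, 15, 30 and 60 min. One strain is delKIN82, which lacks KIN82, a gene for a protein kinase tied to the control of lipid flippases in the plasma membrane. The other is DBY8778, taken as wild type because the labels speak of wild type and kin82 mutant and name no other strain. Each strain and time has 1 array, which makes 10 arrays with 2 channels each, and the other channel holds a reference RNA. The sources used here do not give the makeup of the reference, the temperatures, the medium, the number of deletion clones or the rest of the genotypes. The word repeat stands in the titles of 2 delKIN82 arrays, those of 0 and 60 min, and all DBY8778 titles name heat_shock2, so strain and time course cannot be told apart.

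Ribosomal proteins of the small subunit wrap the RNA that decodes messenger RNA, with a head and a body that meet around the decoding site. Their genes are among the most transcribed in growing yeast and are switched together by Rap1, Fhl1, Ifh1 and Sfp1 under the control of the TORC1 and protein kinase A pathways. In yeast, heat and other stresses are known to lower these transcripts quickly and for a limited time, and many of the duplicated genes have copies that make nearly the same protein from different promoters, introns and untranslated ends.

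All values, called levels below, are log2 ratios to the reference with the median of each array set to 0. A level of 0 is thus the median ratio of that array. Since the makeup of the reference is not known, a level does not give the abundance of a transcript. What can be read is how a gene's ratio changed between arrays, beside the other genes. Fewer cells and less RNA per cell cannot be told apart in such bulk samples. The deposited logarithm was read as base 2, and the ratio was taken as sample over reference, its likely direction, because 22 of 22 measured chaperones in delKIN82 and 21 of 21 in DBY8778 were higher at 15 min than at 0 min. Each array held 5844 to 5949 values, and correlations between arrays over all genes ran between 0.36 and 0.93. KIN82 itself was not analysed here. The spread of all genes was wider on the 5, 15 and 30 min arrays (SD 0.87 to 1.27) than on the 0 and 60 min arrays (SD 0.55 to 0.66). The part of that spread in the results below was not tested beyond the rescaled values given beside them.

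In both strains the ratios of the small subunit genes stood above the array median before heat and well below it at 15 and 30 min. By 60 min they were part of the way back. In delKIN82 the median of the members was 0.55 at 0 min, 0.42 at 5 min, -1.28 at 15 min, -1.22 at 30 min and -0.45 at 60 min. In DBY8778 it was 0.40 at 0 min, -0.52 at 5 min, -2.17 at 15 min, -1.27 at 30 min and -0.53 at 60 min. At 0 min, 80.0% of all genes in delKIN82 and 77.2% in DBY8778 lay below the members' median, and at 15 min this share was 10.3% in delKIN82 and 5.49% in DBY8778. At 30 min it was 7.004% in delKIN82 and 7.83% in DBY8778, so by this share the lowest point was at 30 min in delKIN82 and at 15 min in DBY8778. At 60 min it was 19.4% in delKIN82 and 16.3% in DBY8778, so the members' median was below the median ratio of both arrays.

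**Figure D1:**
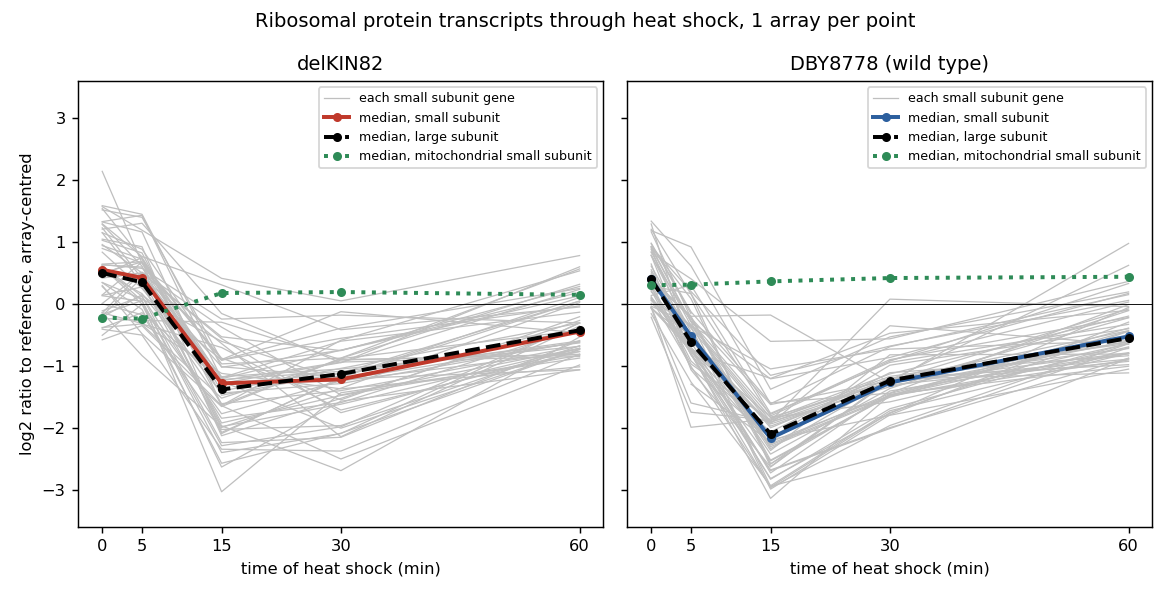
Centred log2 ratio to the reference against minutes of heat shock, with delKIN82 on the left and DBY8778 on the right. Each grey line is 1 small subunit gene, each point 1 array, and the coloured, dashed and dotted lines are the medians of the small subunit, large subunit and mitochondrial small subunit genes. The small subunit median is at -1.28 in delKIN82 and -2.17 in DBY8778 at 15 min, next to the large subunit median on each array.

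Averaged over 5, 15, 30 and 60 min and over both strains, 47 of 53 tested small subunit genes fell relative to 0 min and 0 rose. Calls throughout are at an adjusted p under 0.05 in limma with Benjamini-Hochberg adjustment over all genes tested, and in this comparison 10.3% of all genes were called lower. The members' median change was -1.31, with a range between -2.30 and -0.38, against a median of 0.03 over all genes. RPS26B has no value on the DBY8778 0 min array and was not tested. The count rests on a pair of 0 min arrays: it was 11 without the DBY8778 0 min array, 34 without the delKIN82 one, and 30 without both delKIN82 arrays titled repeat.

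All 8 single-copy genes fell, with a median change of -1.77, and so did 39 of 45 duplicated genes, with a median of -1.28. RPS2, a protein of the mRNA entry site with a role in decoding accuracy, had 1.23, 0.41, -1.92, -1.48 and -0.83 at 0, 5, 15, 30 and 60 min in delKIN82. In DBY8778 it had 1.29, -0.75, -2.18, -1.30 and -0.22. Its lowest 0 min level was above its highest level under heat, and its change of -2.30 ± 0.29 (SE, adjusted p 0.000137 in limma) was the most negative of the members. RPS13, a body protein that joins early in assembly, had 2.14, 0.66, -0.90, -0.13 and -0.47 in delKIN82 and 0.98, -0.13, -1.60, -1.44 and -0.01 in DBY8778. Both 0 min arrays were above all heated arrays, and RPS13 fell by 2.06 ± 0.29 on the log2 scale (adjusted p 0.000287 in limma). RPS31, made as a fusion with ubiquitin, changed by -1.86. RPS15, a head protein near the decoding site, changed by -1.68. RPS12, a protein of the beak of the head, changed by -1.40. RPS3, which lines the mRNA entry channel, changed by -1.30, and RPS20, a head protein, by -1.20.

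Strongly negative changes among the duplicated genes included those of RPS6B (-2.04), RPS1B (-1.99) and RPS0B (-1.78). RPS6 is the small subunit protein phosphorylated on TORC1 signals, and RPS1 and RPS0 sit on the solvent side around the platform. RPS6B had 1.28, 0.61, -2.09, -1.19 and 0.05 at 0, 5, 15, 30 and 60 min in delKIN82, and 0.78, -0.81, -2.82, -1.77 and -0.06 in DBY8778. In each strain its 0 min level was the highest of the course. RPS1B had 0.60, -0.00, -2.64, -1.57 and -1.07 in delKIN82 and 0.48, -0.82, -2.68, -1.998 and -0.88 in DBY8778, the strains lying within 0.43 of each other at every time other than 5 min.

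At the other end, 6 duplicated genes did not pass the test, namely RPS14B (-0.38 ± 0.25), RPS30A (-0.54 ± 0.25), RPS22B (-0.66 ± 0.30), RPS25B (-0.73 ± 0.31), RPS28A (-0.85 ± 0.32) and RPS24A (-0.91 ± 0.31, SE). Their adjusted p in limma lay between 0.0624 for RPS24A and 0.353 for RPS14B, and RPS28B, with nearly the same change as RPS28A (-0.86 ± 0.24), was called. RPS30A, one of the genes for a small body protein, had -0.23, -0.27, -0.30, -0.90 and -0.81 at 0, 5, 15, 30 and 60 min in delKIN82, and 0.07, -0.36, -1.05, -0.73 and -0.60 in DBY8778. Its levels spanned less than those of RPS2 and were already near or below 0 before heat. RPS14B, whose pre-mRNA is known to be bound by the Rps14 protein, had -0.22, 0.15, -0.91, -0.39 and 0.25 in delKIN82 and 0.11, -0.77, -1.20, -0.47 and -0.10 in DBY8778, and at 60 min it was above its 0 min level in delKIN82 and below it in DBY8778. In the heat average the head and the body did not stand apart by their counts. Here 18 of 20 head genes fell with a median of -1.30, and 29 of 33 body genes with a median of -1.33.

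**Figure D2:**
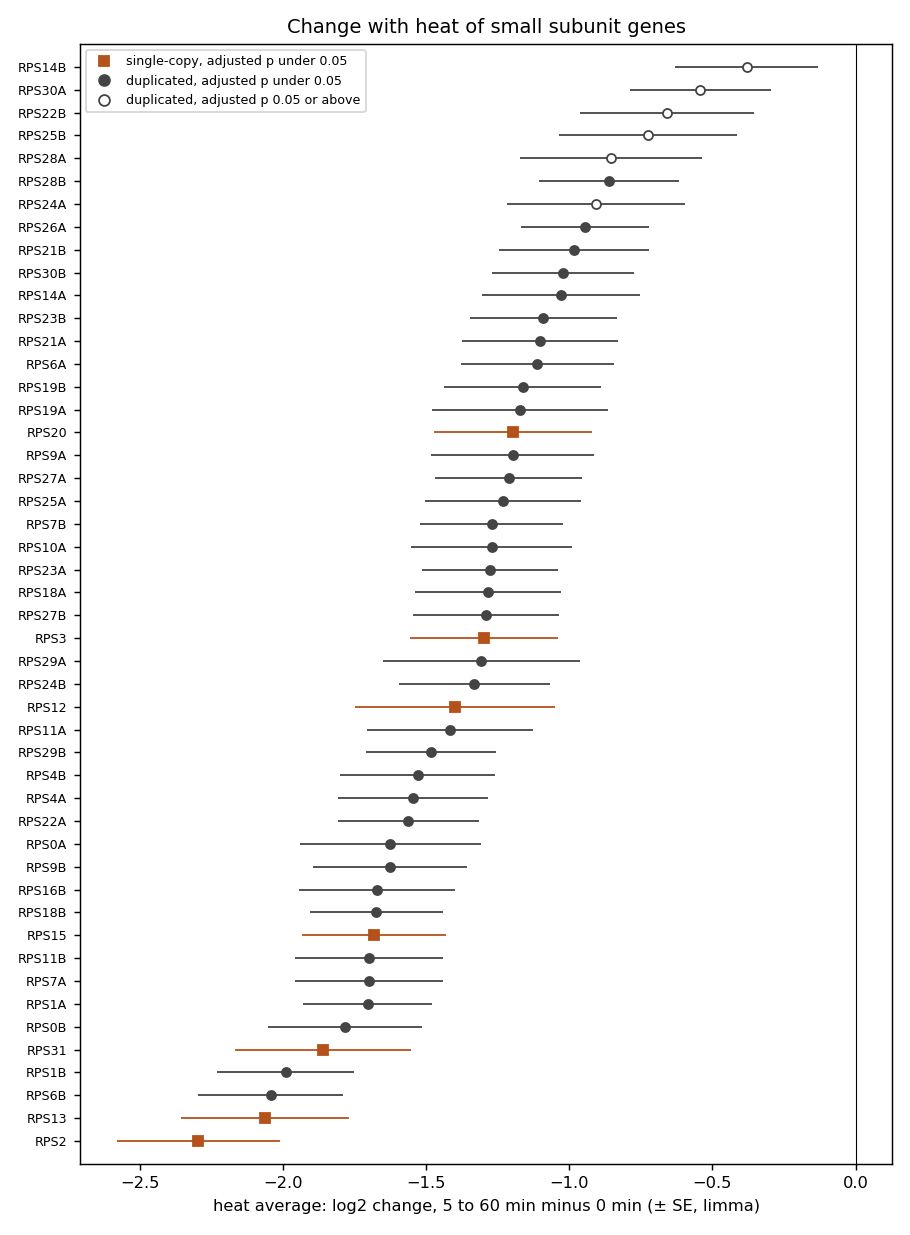
Change with heat of the small subunit genes named on the axis, as the mean of 5 to 60 min minus 0 min over both strains on the log2 scale, with bars for the limma standard error. Squares are single-copy genes, circles duplicated genes, and open symbols did not pass the test. RPS2 at -2.30 and RPS14B at -0.38 mark the ends, and all 6 open symbols are duplicated genes.

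The single times against 0 min share the same 0 min arrays, so their counts are not independent of each other. At 5 min 6 members were called lower and 0 higher, where 4.77% of all genes were called lower, and the members' median change was -0.55. The 6 were RPS2 (-1.43), RPS9A (-1.36), RPS13 (-1.29), RPS6B (-1.13), RPS27A (-1.12) and RPS7B (-1.08), the last 2 named after their values were seen. RPS27A encodes a zinc-finger protein of the body. All 6 are body genes, of which 33 were tested (median -0.62), and 0 of 20 head genes were called (median -0.38). The count of members was 13 without the delKIN82 5 min array and 0 without any 1 of the DBY8778 5 min, DBY8778 0 min and delKIN82 0 min arrays. Without the DBY8778 5 min array RPS2 was at -0.78, RPS9A at -0.67, RPS6B at -0.66, RPS27A at -0.65 and RPS7B at -0.59. RPS13 stayed between -1.857 and -1.007 in all alternatives run, including that one. The count was 3 without either 60 min array and 3 after quantile normalization. The highest values at 5 min were those of RPS22B (0.11), RPS21B (0.02), RPS25B (0.01) and RPS28A (-0.02), all with an adjusted p above 0.9 in limma.

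At 15 min 51 members were lower and 0 higher, against 14.1% of all genes called lower, with a median change of -2.29. Only RPS25B (-0.997 ± 0.39, adjusted p 0.0817) and RPS30A (-0.59 ± 0.31, adjusted p 0.196 in limma) did not pass. RPS6B showed the most negative change (-3.49 ± 0.32), followed by RPS0B (-3.35 ± 0.34) and RPS2 (-3.31 ± 0.36). The count lay between 42 and 52 under every alternative run. After quantile normalization the members' median was -1.82 at 15 min and -1.87 at 30 min. At 30 min 47 members were lower and 0 higher, against 8.14% of all genes, with a median of -1.81, and RPS31 had the most negative change (-3.02 ± 0.39). That count was 22 without the DBY8778 0 min array and 24 without the delKIN82 30 min array.

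The step between the first and the later time is free of the 0 min arrays. Between 5 and 15 min, 37 members fell further and 0 rose, against 4.74% of all genes called lower, with a median of -1.72. All 8 single-copy genes were among them. RPS31 (-2.57 ± 0.39) and RPS0B (-2.52 ± 0.34) had the most negative step. Of the 6 members already called at 5 min, RPS9A, RPS27A and RPS7B had steps of -0.52, -0.64 and -0.75 that did not pass. RPS6B (-2.36), RPS2 (-1.88) and RPS13 (-1.515) were called at 5 min and again for the step. The step starts from the same 5 min arrays that gave those calls, so the calls and the steps are not independent. After quantile normalization 0 members and 0 genes of all were called for this step in limma. The count was 21 without the delKIN82 5 min array and 23 without the DBY8778 15 min array.

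Between 15 and 60 min 37 members rose and 0 fell, against 12.1% of all genes called higher, with a median of 1.34. RPS6B rose most (2.45 ± 0.32), then RPS0B (2.34 ± 0.34) and RPS22A (2.15 ± 0.31), and RPS30A had a change of -0.03 ± 0.31. This count was 6 after quantile normalization, 21 after scaling the arrays to an equal spread, 15 without the DBY8778 60 min array and 21 without the DBY8778 15 min array. At 60 min 4 members were still called lower than at 0 min, RPS13 (-1.80), RPS2 (-1.79), RPS1B (-1.51) and RPS15 (-1.48), where 0.905% of all genes were. The median of the members was -0.94, against -0.01 over all genes. RPS13 was at -1.08 without the delKIN82 60 min array. The highest changes at 60 min were those of RPS14B (0.12), RPS24A (-0.00), RPS6A (-0.30) and RPS28A (-0.34). The count at 60 min was 31 after quantile normalization, 30 after scaling to an equal spread, 7 without either 5 min array, 1 without the DBY8778 60 min array and 0 without any 1 of the 2 arrays at 0 min and the delKIN82 60 min array.

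Both the A and the B copy of a protein fell with heat in most pairs, and their levels came apart in a few. Both copies were measured for 22 proteins, both were called lower in 15 pairs, and in 7 pairs 1 copy was called (in the RPS26 pair the B copy was not tested). The median absolute difference between the changes of A and B in the heat average was 0.28, and 4 pairs differed by more than 0.5. Over the 10 arrays, the correlation between the copies of 20 complete pairs had a median of 0.90 (0.69 to 0.98), beside 0.87 (0.29 to 0.99) for the 1255 other pairs among the 51 complete members. These are descriptions, since the points share arrays and all members moved with time. The sources used here do not say whether the probes told the copies apart, and shared signal would bring A and B closer together.

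An exact two-sided permutation test of A minus B, heated against 0 min arrays, gave 4 of 20 complete pairs at a raw p of 0.0444 (RPS6, RPS18, RPS25 and RPS30), where 45 divisions of the arrays allow a smallest p of 0.0222. None of the 20 passed Benjamini-Hochberg adjustment over the pairs, with a lowest adjusted p of 0.222. That test has no term for strain or time. A limma fit of A minus B for all 58 pairs of genes whose symbols differ only in a final A or B, most of them for ribosomal proteins, adjusted together with all genes, was added after seeing the data. It called 2 of 21 tested small subunit pairs in the heat average, where 6.9% of all A and B pairs were called. At 15 min it called 5 of 21, where 13.8% of all A and B pairs were called. Each such share, here and below, includes the small subunit pairs themselves, which at 15 min were 5 of the 8 called. Of 35 large subunit pairs, 1 was called in the heat average and 2 at 15 min.

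RPS6 and RPS22 were the 2 pairs called in the heat average. RPS6A had -0.11, 0.12, -2.24, -2.15 and -0.59 at 0, 5, 15, 30 and 60 min in delKIN82 and 0.01, -0.53, -2.43, -1.37 and -0.11 in DBY8778, against the values of RPS6B given above. A minus B was -1.40 in delKIN82 and -0.77 in DBY8778 at 0 min, and -0.15 in delKIN82 and 0.40 in DBY8778 at 15 min. The change of A minus B was 0.93 ± 0.23 (adjusted p 0.0123 in limma), as RPS6B fell more than RPS6A. It did not pass without the delKIN82 0 min array (1.03) or without the DBY8778 0 min array (0.84).

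RPS22, a body protein, is encoded by RPS22A and the intron-containing RPS22B. RPS22A had 0.13, 0.04, -2.29, -1.99 and -0.31 in delKIN82 and 0.26, -0.82, -2.97, -1.96 and -0.64 in DBY8778. RPS22B had -0.38, -0.32, -0.70, -1.71 and -0.77 in delKIN82 and 0.14, 0.30, -1.77, -0.95 and -0.33 in DBY8778. The ratio of RPS22B was above that of RPS22A by more than 1 on both 15 min arrays. Each copy is set against its own signal in the reference, so this does not say which copy was more abundant. The change of A minus B was -0.90 ± 0.29 in the heat average (adjusted p 0.046 in limma), a call that 8 of the 12 alternatives did not keep, and -1.71 ± 0.37 at 15 min (adjusted p 0.00279), which did not pass without the delKIN82 15 min array (-1.095).

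For RPS7 and RPS9 the A minus B difference changed between 5 and 15 min. RPS7A had 0.34, -0.09, -2.57, -2.09 and -0.74 at 0, 5, 15, 30 and 60 min in delKIN82 and 0.11, -0.79, -3.14, -1.48 and -0.91 in DBY8778. RPS7B had 0.28, -0.33, -1.52, -0.91 and -0.82 in delKIN82 and -0.05, -1.60, -1.91, -1.25 and -0.89 in DBY8778. In both strains the ratio of B was below that of A at 0 and 5 min and above it at 15 min. Which copy was more abundant cannot be read from these ratios. At 5 min the change of A minus B against 0 min was 0.42 ± 0.32 and was not called (adjusted p 0.498 in limma). Between 5 and 15 min the A minus B difference of RPS7 changed by -1.67 ± 0.32 (adjusted p 0.00551 in limma).

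RPS9, a protein tied to decoding accuracy whose 2 copies regulate each other through their introns, ran the other way. RPS9A had 0.30, -0.48, -1.66, -0.88 and -0.43 in delKIN82 and -0.06, -1.99, -1.86, -1.13 and -0.20 in DBY8778. RPS9B had 0.50, 0.68, -2.13, -1.53 and -0.27 in delKIN82 and 0.55, -0.61, -2.73, -1.41 and -0.80 in DBY8778. In both strains the ratio of RPS9A was below that of RPS9B at 0 min, more than 1 below it at 5 min and above it at 15 min. At 5 min the change of A minus B against 0 min was -0.86 ± 0.33 and was not called (adjusted p 0.135 in limma). Between 5 and 15 min the A minus B difference changed by 1.94 ± 0.33 (adjusted p 0.00279 in limma). For this step 5.17% of all A and B pairs and 1 of 35 large subunit pairs were called. RPS7 and RPS9 were the 2 of 21 small subunit pairs called. Neither passed after quantile normalization, with -1.12 for RPS7 and 1.43 for RPS9, and RPS7 did not pass without the DBY8778 15 min array (-1.39). RPS9 was named after its values were seen.

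The other pairs called at 15 min were RPS30, RPS7, RPS9 and RPS6 beside RPS22. A minus B changed by 0.93 ± 0.27 for RPS30, by -1.25 ± 0.32 for RPS7, by 1.08 ± 0.33 for RPS9 and by 1.21 ± 0.30 for RPS6 (adjusted p in limma between 0.00738 and 0.0262). The number called was 1 without the DBY8778 0 min array, 3 without either 15 min array and 3 after quantile normalization. Of the remaining pairs with large differences in the heat average, RPS14 had A minus B at -0.65 and RPS25, a head protein used by some viral internal ribosome entry sites, at -0.51, and neither was called. Averaged over both strains, the RPS28, RPS19 and RPS4 pairs were among those closest together. RPS4A changed by -1.55 ± 0.26 and RPS4B by -1.53 ± 0.27, and RPS19A by -1.17 ± 0.31 and RPS19B by -1.16 ± 0.27. Within each strain the RPS19 copies were further apart, in opposite directions. RPS19A changed by -0.44 and RPS19B by -1.02 in delKIN82, and RPS19A by -1.90 and RPS19B by -1.30 in DBY8778.

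**Figure D3:**
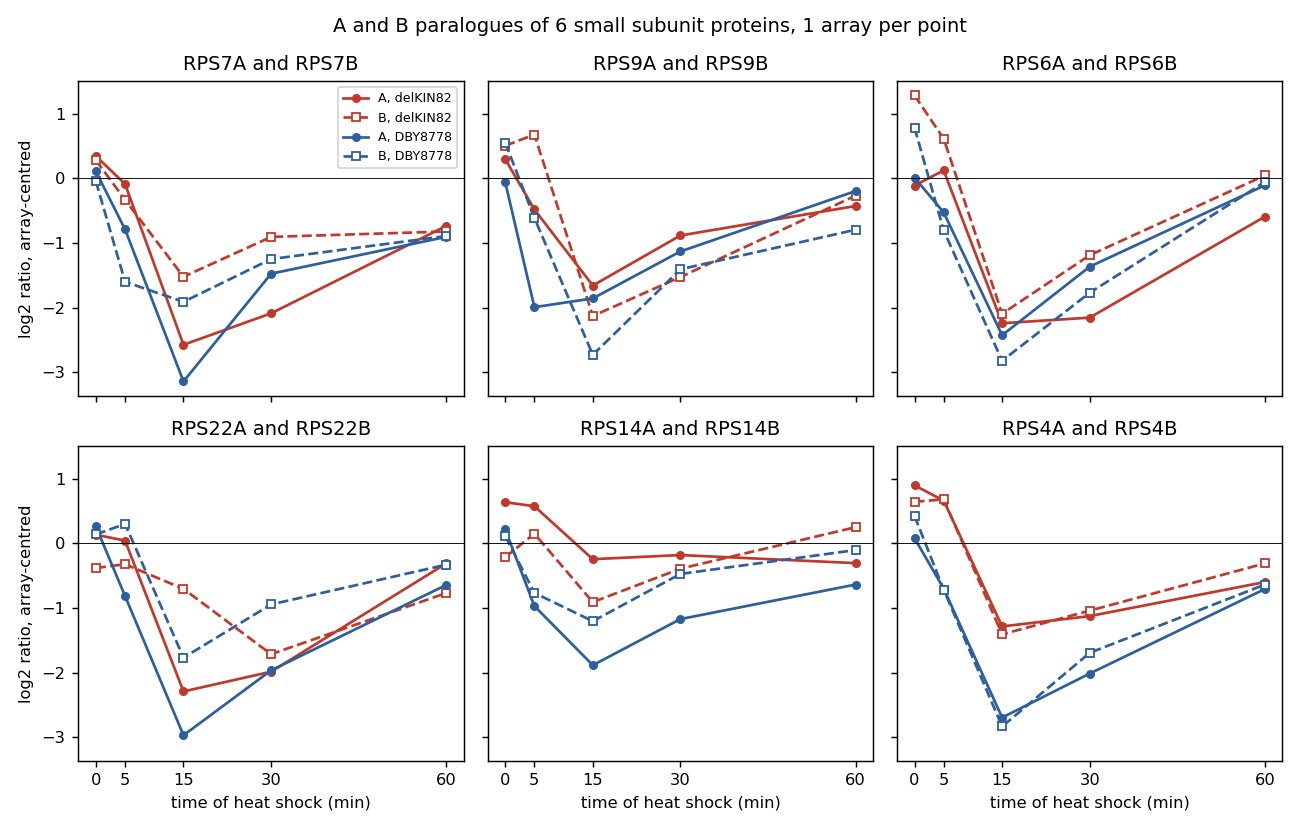
Centred log2 ratio to the reference against minutes of heat shock for the A copies (filled circles, full lines) and B copies (open squares, dashed lines) of 6 small subunit proteins, 1 array per point, with delKIN82 in red and DBY8778 in blue. RPS7B lies below RPS7A at 5 min and above it at 15 min, and RPS9 runs the other way. RPS4A and RPS4B lie closer together, with A minus B between -0.345 and 0.253.

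Over all 5 times, 6 small subunit genes were higher in delKIN82 than in DBY8778 and 0 were lower, where 6.6% of all genes were called higher. The members' median difference, delKIN82 minus DBY8778, was 0.35, against 0.01 over all genes, and 45 of 53 members had a positive difference. The 6 were RPS14A (0.98 ± 0.22, adjusted p 0.0134), RPS4A (0.92 ± 0.21, adjusted p 0.0143), RPS4B (0.80 ± 0.22), RPS21B (0.78 ± 0.21), RPS26A (0.72 ± 0.18) and RPS6B (0.67 ± 0.20, adjusted p 0.0459 in limma). All 6 are duplicated genes of the body, to which 33 of the 53 tested members belong. RPS14A, for a platform protein, had 0.64, 0.57, -0.25, -0.18 and -0.31 at 0, 5, 15, 30 and 60 min in delKIN82 and 0.22, -0.97, -1.88, -1.17 and -0.64 in DBY8778, and was higher in delKIN82 at every time. RPS4A, for a body protein, had 0.90, 0.66, -1.29, -1.13 and -0.60 in delKIN82 and 0.08, -0.70, -2.69, -2.01 and -0.71 in DBY8778, again higher in delKIN82 at every time. RPS13 (0.70), RPS19B (0.70) and RPS11A (0.69) had larger differences than RPS6B and were not called. The lowest differences included those of RPS12 (-0.53), RPS22B (-0.26), RPS3 (-0.15), RPS19A (-0.13) and RPS6A (-0.11), none of them called.

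The strain difference of the members was not even over time. Its median was 0.12 at 0 min, 0.92 at 5 min, 0.70 at 15 min, 0.03 at 30 min and 0.07 at 60 min, each from 1 array per strain, so that no test of a single time was made. At 0 min 21 of 53 members had a negative difference, and at 5 and at 15 min 4 of 53 each. RPS12 had the most negative difference at 0 min, with -0.58 in delKIN82 and 0.92 in DBY8778 at 0 min and -0.35 in delKIN82 and 0.08 in DBY8778 at 5 min. With only the 0 and 60 min pairs of arrays, 1 member was called, RPS12, lower in delKIN82 by -0.94, and with only the 5, 15 and 30 min pairs 5 were called, all higher. With no time term 0 were called. The count was 3 without either 5 min array, 2 higher and 1 lower (RPS12) without either 15 min array, 2 without either array at 30 min and 3 after quantile normalization. Over all genes the strain calls were 379 higher and 309 lower, and 441 higher and 232 lower without centring.

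**Figure D4:**
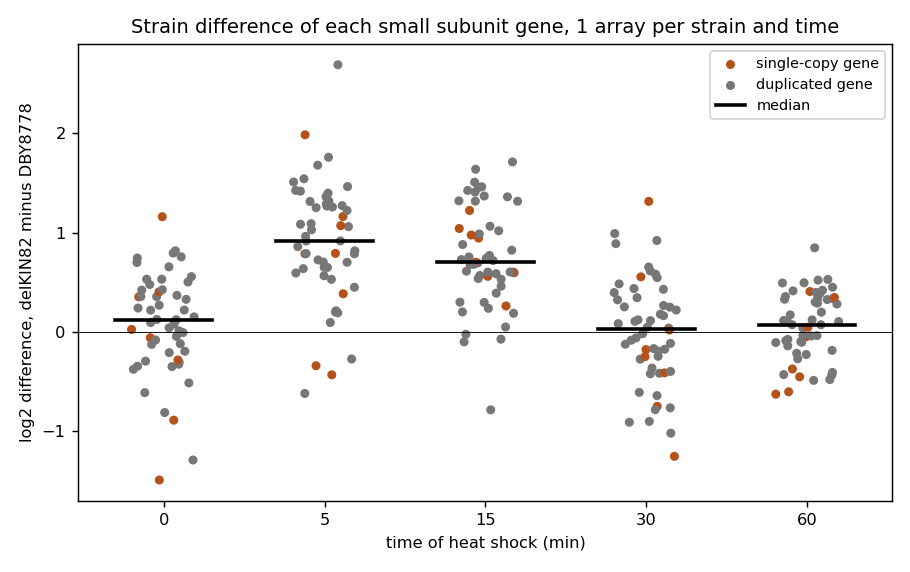
Difference of the centred log2 ratio, delKIN82 minus DBY8778, for each small subunit gene at each time, with 1 array per strain and time. Orange points are single-copy genes, grey points duplicated genes, and bars the medians, which are 0.92 at 5 min, 0.70 at 15 min and between 0.03 and 0.12 at the other times.

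The difference between copies was itself different between strains in 4 of 21 pairs in the added limma fit of A minus B, where 10.3% of all A and B pairs were called. Among them, the A minus B difference was lower in delKIN82 for RPS19 (-0.82 ± 0.23) and RPS6 (-0.78 ± 0.19) and higher for RPS14 (0.72 ± 0.21), with an adjusted p in limma between 0.0183 and 0.0352. RPS19 is a head protein needed to finish the small subunit's RNA. A minus B of RPS19 was -0.93, -0.50, -0.60, -0.19 and -0.08 at 0, 5, 15, 30 and 60 min in delKIN82, against 0.85, 0.31, 0.17, 0.66 and -0.17 in DBY8778. It was lower in delKIN82 at 0 to 30 min and slightly higher at 60 min. The count was 0 without either 30 min array, 2 without either 15 min array, 2 without the delKIN82 0 min array, 1 without the DBY8778 0 min array and 2 after quantile normalization.

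Whether the deletion changed the heat response was asked with a strain by heat term, the heat average in delKIN82 minus that in DBY8778. No member and no gene at all was called (0% of all genes), while 2 of 53 members and 130 of 5744 genes had an unadjusted p under 0.05 in limma. The members' median was 0.33, against -0.04 over all genes. The highest values were those of RPS19A (1.46 ± 0.52), RPS31 (1.36 ± 0.54), RPS12 (1.22 ± 0.65) and RPS11B (0.75 ± 0.52), and the lowest those of RPS24A (-0.69 ± 0.62), RPS13 (-0.57 ± 0.60), RPS0A (-0.46 ± 0.65) and RPS1A (-0.40 ± 0.48), each with an adjusted p of 0.999. RPS31 had 0.01, 0.51, -1.97, -2.69 and -0.53 in delKIN82 and 0.90, -0.28, -2.95, -2.44 and -0.88 in DBY8778, and its 0 min levels differed by -0.89. The term rests on 1 array per strain at 0 min.

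Of 31 regulators of ribosomal protein genes and partners of the small subunit, 30 were tested, and in the heat average 4 rose and 4 fell, where 5.76% of all genes were called higher and 10.3% lower. LST8 (1.15 ± 0.27) and TOR1 (0.91 ± 0.25), subunits of TORC1, and IFH1 (0.82 ± 0.25), a coactivator of ribosomal protein genes, were among those that rose. ASC1 (-1.99 ± 0.27), the RACK1 protein on the head of the small subunit, STM1 (-1.35 ± 0.29), which preserves idle ribosomes, TSR2 (-0.97 ± 0.24), the escort of the RPS26 protein, and TOD6 (-0.84 ± 0.23), a repressor of ribosome production genes, fell. Their adjusted p in limma lay between 0.000203 and 0.0338. ASC1 thus had a change within the range of the members. Between strains FHL1 (0.76 ± 0.19), TOD6 (0.76 ± 0.20) and STM1 (0.75 ± 0.23) were higher in delKIN82 and CRF1 (-0.62 ± 0.18), a corepressor of ribosomal protein genes, was lower, where 6.6% of all genes were called higher and 5.38% lower. At single times YAR1, the escort of the RPS3 protein, was higher at 5 min (1.68 ± 0.36), RAS2, an activator of the protein kinase A pathway, at 15 min (0.93 ± 0.32), and HMO1, a chromatin protein of ribosomal protein promoters, fell between 15 and 60 min (-1.26 ± 0.31). RAP1, SFP1 and SCH9 were not called in any of the 9 comparisons.

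The course of the small subunit genes was shared with those of the large subunit. Of 81 tested large subunit genes, 72 fell in the heat average with a median of -1.31, and 20 were higher in delKIN82 with a median difference of 0.44. In contrast, 0 of 19 tested genes of the mitochondrial small subunit were called in the heat average (2 with an unadjusted p under 0.05 in limma, median 0.21), and 4 were lower in delKIN82. The genes whose pattern over the 10 arrays was most like the members' median were ETT1 (r = 0.99), RPL2A, RPL35A, RPL16B, RPL11A and RPL4B (r = 0.98 each) among 5119 ranked genes. Large subunit genes made up 15 of the 20 most alike and 54 of the 100 most alike, out of 81 in all. ETT1, a factor of translation termination, ARO4 (r = 0.98) and NCS2 (r = 0.97) were the most alike outside the cytosolic ribosome. Within the members, the patterns least like the median were those of RPS24A (r = 0.73), RPS22B (0.75), RPS9A (0.76), RPS30A (0.77) and RPS14B (0.78). These correlations describe 10 arrays that share 1 time course per strain.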

How the data were processed

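The authors deposited log ratios of the sample and reference channels of 10 arrays, read here as log2 values. Not given in the sources used here are the logarithm's base, the direction, the dyes, the scanner, and any background correction or normalization, and a natural logarithm would scale every value by one common factor. Groups came from the sample titles.

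The median of each array was subtracted. Genes needed values at 0 min in both strains and on 8 or more of the 10 arrays. The limma package (version 3.58.1, R version 4.3.3) fitted them by lmFit and eBayes with terms for strain and for each time (4 residual degrees of freedom, prior 11, prior SD 0.31). Strain by heat was a further term. P-values were adjusted by Benjamini-Hochberg over all genes tested. A gene without a value at a needed time was left out of that comparison. RPS16B lacks the DBY8778 15 min value, RPS27B the delKIN82 5 min value and RPS26B the DBY8778 0 min value, and none was imputed. The model was tested on simulated data. The labels do not say whether times or strains came from separate cultures, and no strain and time has a second array, so p-values set additive effects against departures from additivity.

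A search for promoter motifs was planned and not run, since no sequences were used here. Values of a few members and of 1 regulator are not reported here by name, though the counts and medians include them. Alternatives were no centring, quantile normalization, equal spread, complete genes, robust eBayes, and leaving out arrays. The number of arrays limits the precision.

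The members, gene lists and tests were chosen with earlier results of these data known. Genes named were otherwise the single-copy members, the extremes of each comparison, the pairs furthest apart and closest, members outside a count, regulators that passed and the most similar patterns.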

Additional observations from a re-analysis of the deposited data

How the results depend on the processing

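The heat average count of 47 stayed between 45 and 48 under 4 scaling or filter settings and robust eBayes, became 30 without both arrays titled repeat, and lay between 11 and 50 when 1 array was left out. The 15 min count (51) lay between 42 and 52. The 5 min count (6) was 3 under quantile normalization and ran between 0 and 13 with arrays left out. The 30 min count (47) ran between 22 and 51. The 60 min count (4) was 31 under quantile normalization and 30 with equal median absolute deviation, and ran between 0 and 7 with arrays left out. The 15 against 5 min count (37) was 0 under quantile normalization and 21 to 43 with arrays left out. The 60 against 15 min count (37) was 6 under quantile normalization, 21 with equal median absolute deviation and 15 to 42 with arrays left out. There RPS27A, at 1.01, turned to -0.0509 under quantile normalization. The strain count (6) was 3 under quantile normalization, 0 with no time term, 1 with only the 0 and 60 min pairs and 2 to 7 with arrays left out. The strain by heat count was 0 in limma under every setting that could be fitted. That term could not be fitted without either 0 min array. For A minus B, the exact permutation count (4 at a raw p under 0.05) was 3 under quantile normalization and with equal median absolute deviation, and 0 to 2 with arrays left out. Without a 0 min array 9 divisions remain, whose smallest p of 0.111 allows no call, so those 2 settings say nothing. The added limma count in the heat average (2) was 4 with equal median absolute deviation and 0 to 2 with arrays left out. At 15 min (5) it was 3 under quantile normalization and 1 to 6 with arrays left out, for 15 against 5 min (2) it was 0 under quantile normalization, and between strains (4) it was 2 under quantile normalization and 0 to 4 with arrays left out. Of 235 called results of single members, 81 were not called under quantile normalization, 29 with equal median absolute deviation, 0 with no centring and 85 without the DBY8778 0 min array. The cause of these shifts was not tested. The strain comparison pairs the arrays of a time through its time terms, with 5 called from only the 5, 15 and 30 min pairs, and no replicate block could be fitted because each strain and time has 1 array.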
